A study of Mus musculus with 33 samples.

Results

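Medullary thymocytes sorted from the thymus were compared with cortical thymocytes sorted from it, on 10 of the 33 arrays of the study. The arrays were chosen by their titles, 5 for each population, and every gene with a measurable probe set entered the comparison. Both populations came from the same kind of mouse, C57BL/6J males that were 4 to 6 weeks old, and the labels name no transgene, deletion or drug in either. Cortical thymocytes were CD45+ cells with absent or low CD3 that also carried CD90 or CD117, and medullary thymocytes were CD45+ cells with high CD3. The gates stand for the compartments, so position in the organ was not observed in these cells, and maturity, gate and compartment cannot be told apart. The titles call the arrays biological replicates without tying them to animals, so that p-values measure a spread between arrays. That spread was pooled over all 33 arrays of the study and not taken from the sorted ones alone. The other 23 arrays held microdissected tissue, whole cortex and whole medulla (n = 7 each) and 3 layers of the cortex (subcapsular, central and perimedullary, n = 3 each). RNA of sorted cells and of tissue was isolated with different kits.

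Thymocytes enter the cortex as progenitors without CD4 or CD8, divide, rearrange their T cell receptor genes and pass through a stage with both coreceptors. Those whose receptor binds self peptide on MHC molecules with suitable strength survive, raise their CD3 level, keep CD4 or CD8, move to the medulla under chemokine guidance and later leave for the blood. The medulla also holds regulatory, innate-like and gamma-delta T cells, which a gate on high CD3 takes with the conventional ones.

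Each value below is a signal, the brightness of a probe set on the linear scale of the deposited table, and levels of different genes cannot be compared with each other, since they rest on different probes. A fold change is the mean of medullary minus the mean of cortical arrays after adding an offset of 26.2 and taking log2, and it is smaller than the ratio of the signals where a signal is low. A gene was called, and is said to have risen or fallen, where its Benjamini-Hochberg adjusted p from limma was below 0.05 and its log2 fold change at least 1 in size. Means are given ± SD with n = 5 arrays per population, and SE is the standard error of the fit. Pearson correlations of log2 values were 0.975 to 0.982 between cortical arrays, 0.946 to 0.974 between medullary arrays and 0.908 to 0.944 between the populations. Medullary arrays 1, 2 and 3 had a longer bright tail, with 0.1% of their probe sets above 46213 to 69138, against 26209 to 32537 in the other 7 sorted arrays. Without these arrays 984 genes were called higher and 798 lower, against 1032 and 845 with them. Among 282 described genes, 14 lost their call without these arrays, 3 gained one and 0 of those called in either fit changed sign.

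The genes behind the gates were examined first. Cd3e, a chain of CD3, had signals of 7514, 6519, 8307, 6999 and 7293 in cortical and 7805, 13067, 5517, 9630.2 and 9304 in medullary arrays. The populations overlapped and the gene was not called (log2 fold change 0.26, SE 0.25, adjusted p = 0.445), although the gates separate cells by the amount of CD3 at the surface. Thy1, which encodes CD90, fell from 25713 ± 1762 to 12412 ± 1982. Without medullary array 4 its difference was -0.99, just short of a call. Ptprc, which encodes CD45, and Kit, which encodes CD117, were not called, at 26218 ± 483 and 134 ± 33.9 in cortical and 37893 ± 6683 and 256 ± 52.7 in medullary thymocytes. The cortical gate selected on CD90 and CD117, so the levels of Thy1 and Kit are a description of the gate. Kit ran against it, since the 5 medullary arrays (243, 231, 189, 294 and 323) lay above the 5 cortical ones (143, 127, 109.6, 188 and 104), with a log2 fold change of 0.82 (SE 0.31).

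Markers of other cells were examined as lists. Over all genes tested 7.67% rose and 6.28% fell, 13.9% in either direction, so 1 call in a short list is near that share. None of 14 macrophage genes was called, and their summed signal was 460 to 682 over cortical and 593 to 871 over medullary arrays. Of 12 B cell genes 1 fell (Cd79b, part of the B cell receptor, from 684 ± 63.6 to 267 ± 28.1), with sums of 1049 to 1410 and 802 to 1131. Of 5 plasma cell genes Mzb1 fell, from 295 ± 39 to 71.7 ± 23.2, with sums of 7870 to 9285 and 3478 to 5451. Of 12 dendritic cell genes Zbtb46, Bst2 and Cd83 rose, and the sums were 693 to 987 and 1919 to 2592. Bst2 rose from 509 ± 111 to 1417 ± 244, Cd83 from 23.7 ± 15 to 244 ± 40.6 and Zbtb46 from 38.1 ± 22 to 121 ± 41.2, the last at 0.54 and not called with averaged probe sets. Itgax, the integrin chain CD11c, was not called at 47.1 ± 29.4 and 101 ± 24.4 (0.88, SE 0.24), nor were Ccl22 (24.9 ± 20.2 and 17.4 ± 12.6) and Fscn1 (45.4 ± 19.8 and 58.3 ± 20.9). Itgax was called, at 1.01, 1.03 or 1.19, without cortical array 1, without cortical array 2 or with an offset of 6.55. The part of dendritic cells in the results below was not tested.

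Of 10 granulocyte and mast cell genes S100a8, S100a9 and Camp fell, S100a8 from 269 ± 127 to 22 ± 16.9, with sums of 909 to 1858 and 544 to 728. Camp lost its call without any 1 of 8 of the 10 arrays, at -0.96 to -1.14. Of 6 erythroid and platelet genes Gata1 rose, from 67.5 ± 15.4 to 223 ± 52.6, while Alas2, the haem synthesis enzyme of red cells, was at 7.64 ± 5.12 and 18.8 ± 25.1, and the sums were 306 to 485 and 465 to 969. Among stromal lists, 2 of 13 cortical epithelial genes rose (Prss16 and Cd83, sums of 648 to 919 and 1111 to 2124) and 1 of 11 medullary epithelial genes fell (Cldn4, sums of 675 to 892 and 350 to 704). Eng rose among 9 endothelial genes (sums of 986 to 1256 and 1688 to 1931) and Pdgfrb fell among 11 mesenchymal genes (sums of 575 to 835 and 531 to 838). With plain-suffix probe sets alone Eng was at -0.81 and Pdgfrb at -0.016. The epithelial genes Psmb11 (13.9 ± 13.8 and 17.7 ± 19.2) and Krt14 (19.6 ± 22.5 and 11.6 ± 3.4) and the complement gene C1qa of macrophages (4.97 ± 2.93 and 5.26 ± 2.04) were dim, and none was called. Aire of medullary epithelium had 73.3, 28.8, 85.2, 9.47 and 6.64 in medullary arrays, against 9.86 ± 1.65 in cortical ones. Fezf2 was at 9.35 ± 6.07 and 25.3 ± 18.6, and neither was called. Ccl25 (86.4 ± 23.9 and 150 ± 10.8) and Col1a2 (47.3 ± 15.5 and 98.7 ± 15.5) were higher without overlap, but not called. For Ccl25 1 of its 2 probe sets was higher. List medians were 0.48 for cortical epithelium, 0.023 for medullary epithelium and 0.018 for mesenchyme. In cortical array 5 Krt14 reached 59.5, against 8.03, 10.5, 13.7 and 6.32 in the other cortical arrays. In RNA of a whole population, fewer cells of a type and less RNA per cell cannot be told apart, here and in all results below.

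Over the 13463 genes tested, 1032 rose (7.67%) and 845 fell (6.28%) in medullary thymocytes, 13.9% in either direction. These shares are the background for the counts of list members, above and below. The 5 medullary arrays lay above the 5 cortical ones for 2243 genes (16.7%) and below them for 2199 (16.3%). A change of at least 4-fold was called for 307 genes that rose and 205 that fell. The median log2 fold change over all genes was 0.07. The plot of fold change against mean signal shows where the genes with the largest changes lie. The largest falls included genes of receptor gene recombination and several with no textbook role in T cells, and the largest rises included genes of migration, of interferon response and of the Gimap and Schlafen families.

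**Figure D1:**
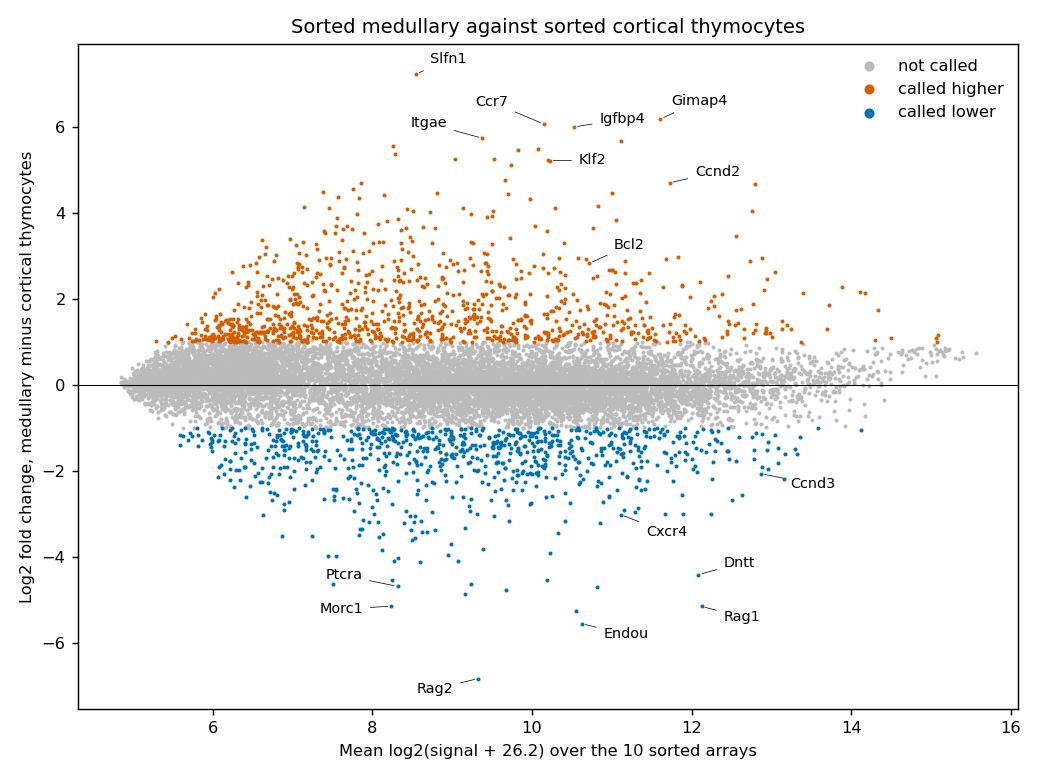
Log2 fold change (medullary minus cortical thymocytes, vertical axis) of 13463 genes against their mean log2(signal + 26.2) over the 10 sorted arrays (horizontal axis). Orange points are the 1032 genes called higher, blue points the 845 called lower and grey points the rest, and labels name genes with the largest changes, such as Slfn1 at 7.23 and Rag2 at -6.84.

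Genes of antigen receptor recombination, which cut and rejoin receptor gene segments, rose in 3 and fell in 6 of 14 cases. Rag2, a subunit of the recombinase, had signals of 6152, 7418, 6993, 6021 and 7689 in cortical and 4.11, 14.2, 136, 21 and 56.4 in medullary arrays. Every medullary array lay far below every cortical one, and the gene fell by 6.84 (SE 0.26, adjusted p = 3.36e-22). Rag1, the other subunit, had 27549.5, 24432, 26532, 28411 and 26422 in cortical and 127, 1599, 1099.9, 855 and 919 in medullary arrays, and it fell by 5.16 (SE 0.35). The signal of Rag1 in medullary array 1 was far below that of the other 4 medullary arrays, so the medullary arrays were not alike in this gene. Dntt, which adds bases at the junctions, fell from 20055 ± 824 to 949 ± 303.

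Within the joining machinery, members moved in opposite directions. Lig4, the ligase of end joining, fell from 4085 ± 156 to 447 ± 141 (log2 fold change -3.17, SE 0.16), and Xrcc6, which encodes the end-binding protein Ku70, fell from 10799 ± 269.8 to 1319 ± 157 (-3.02, SE 0.093). The DNA damage kinase gene Atm rose from 867 ± 62.7 to 2056 ± 507, Trp53bp1 from 1159 ± 83.4 to 2571 ± 533, and Poll, a gap-filling polymerase, from 44.9 ± 11 to 208 ± 55. Trp53bp1 was not called with averaged probe sets (0.63), with plain-suffix probe sets alone (0.68) or without medullary arrays 1, 2 and 3 (0.89). The fall of Hmgb2, a cofactor of the recombinase that is also tied to division, was smaller (-1.21, SE 0.11).

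Of 19 genes that mark the stage with both coreceptors, 13 fell and none rose, with a median log2 fold change of -2.30 against 0.07 over all genes. Endou, an endoribonuclease gene, had 11281, 11343, 10838, 9609.9 and 11073 in cortical and 113, 294, 235, 209.8 and 205 in medullary arrays, and it fell by 5.56 (SE 0.13, adjusted p = 5.43e-28). The populations did not overlap, and each had a narrow range. Ly6d, a GPI-anchored surface protein, fell from 9282 ± 875 to 228 ± 83.4, Arpp21, a phosphoprotein known from neurons, from 9141 ± 333 to 336 ± 90.5, and the aquaporin gene Aqp11 from 5602 ± 349 to 218 ± 43.2. Spo11 and Mns1, known from meiosis, fell by 3.21 and 2.61 on the log2 scale.

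The coreceptors themselves differed less. Cd8a fell from 17783 ± 859.6 to 5813 ± 420.5, Cd8b1 was not called at 21740.3 ± 1018 and 11181 ± 1399 (log2 fold change -0.97, SE 0.14), and Cd4 was not called at 5701 ± 1504 and 3739.9 ± 911. Without medullary array 2 Cd8b1 was called, at -1.02. Medullary thymocytes with CD4, with CD8 or with neither are pooled in this gate, so the level per lineage was not measured.

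Several of the 15 largest falls belong to genes without a textbook role in thymocytes. Morc1, which silences transposons in the male germ line, had 1796, 1863, 1823, 1668 and 1724 in cortical and 43.3, 4.58, 22.8, 18 and 46.4 in medullary arrays, and it fell by 5.15 (SE 0.2). In every medullary array the signal was below the median of its array, while every cortical array was well above. Dgkeos, named as the opposite strand transcript of Dgke, fell from 3089.8 ± 342 to 83.7 ± 35, Nebl, which encodes the actin-binding protein nebulette, from 4223 ± 137 to 136 ± 52.2, and Rapgef3, a cyclic AMP-activated exchange factor for the GTPase Rap, from 2976 ± 223 to 97.4 ± 25.3. The lightly annotated genes BB031773, Tctex1d1 and A930003A15Rik fell, with log2 fold changes of -4.62, -4.55 and -4.11. All probe sets of these genes that passed the filter pointed the same way. For genes with 1 probe set, such as BB031773 and A930003A15Rik, it could not be otherwise.

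Genes of early progenitors and of the stage without coreceptors rose in 3 and fell in 6 of 21 cases. Ptcra, the partner chain of the receptor beta chain before alpha is made, had 1646, 1694, 1583, 1333 and 1755 in cortical and 25.6, 23.1, 95.1, 56.2 and 11.9 in medullary arrays. It fell by 4.69 (SE 0.28, adjusted p = 3.10e-16) without overlap. Gfra1, Mycn, Erg and Il2ra fell too, Il2ra, the alpha chain of the interleukin-2 receptor, from 418 ± 101 to 179 ± 33.1. Il2ra was not called without cortical array 1 (-0.98), without medullary arrays 1, 2 and 3 (-0.92) or with averaged probe sets (-0.84). The 3 that rose were Cd44, Lmo2 and Dtx1, and why they rose was not tested. Cd44, an adhesion receptor that mature T cells also carry, rose from 297 ± 42 to 1358 ± 129.5. Lmo2, a transcriptional adaptor, rose from 20.5 ± 12.9 to 98.4 ± 32.8. Dtx1, a Notch target and ubiquitin ligase, rose from 383 ± 67.8 to 1727 ± 345. With plain-suffix probe sets alone Dtx1 was at 0.5 and was not called.

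Of 32 genes of the Notch pathway, which drives early T cell commitment, 5 rose and 3 fell, against 7.67% and 6.28% of all genes. Notch3, a receptor, had 1273, 967, 1046, 1253 and 1184 in cortical and 213, 215, 215, 253 and 187 in medullary arrays and fell by 2.27 (SE 0.21), whereas Notch1 at 3552 ± 187 and 2077 ± 377 was not called. Lfng, a glycosyltransferase that tunes Notch receptors, had 114, 53.7, 68.4, 85.6 and 117 in cortical and 1353, 1014, 1054, 2001 and 1868 in medullary arrays. It rose by 3.68 (SE 0.43), the largest rise of the list, and its relative Mfng rose by 1.09 (SE 0.11). Dtx1 and the corepressor gene Tle4 rose, by 2.09 and 1.51, while Hes6 and Ptcra fell and Hes1 was not called at 174 ± 36.7 and 78.2 ± 27.8. Leaving out 1 array moved Hes6 to -0.94 to -0.99 and ended its call for 5 of the 10 (cortical 1 and 3, medullary 1, 3 and 4), and brought Hes1 into a call at -1.02 to -1.08 for 3 (cortical 2, medullary 1 and 2). The count of 5 became 3 when only probe sets with a plain suffix were used, and Dtx1 was then at 0.5.

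Genes of mature thymocytes and of exit from the thymus had 25 tested members, of which 20 rose and 1 fell (median 2.75). Ccr7, the receptor that draws cells to the medulla, had 123, 126, 97.5, 123 and 93.6 in cortical and 9403, 10019, 10296, 7985 and 8807 in medullary arrays. Klf2, a transcription factor that controls exit, had 166, 205, 181, 149 and 152 in cortical and 7784, 8815, 4833, 7596 and 8064 in medullary arrays, where array 3 lay below the other 4. The exit receptor gene S1pr1, which Klf2 is known to activate, rose from 72.1 ± 26 to 2089.6 ± 295 (log2 fold change 4.46, SE 0.19). Igfbp4, a binding protein of insulin-like growth factors, rose from 159 ± 21.2 to 11929 ± 2119 with all 6 of its probe sets higher. Cd24a, a surface protein lost on maturation, was the gene that fell, from 15539.6 ± 415 to 4065 ± 780.4.

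**Figure D2:**
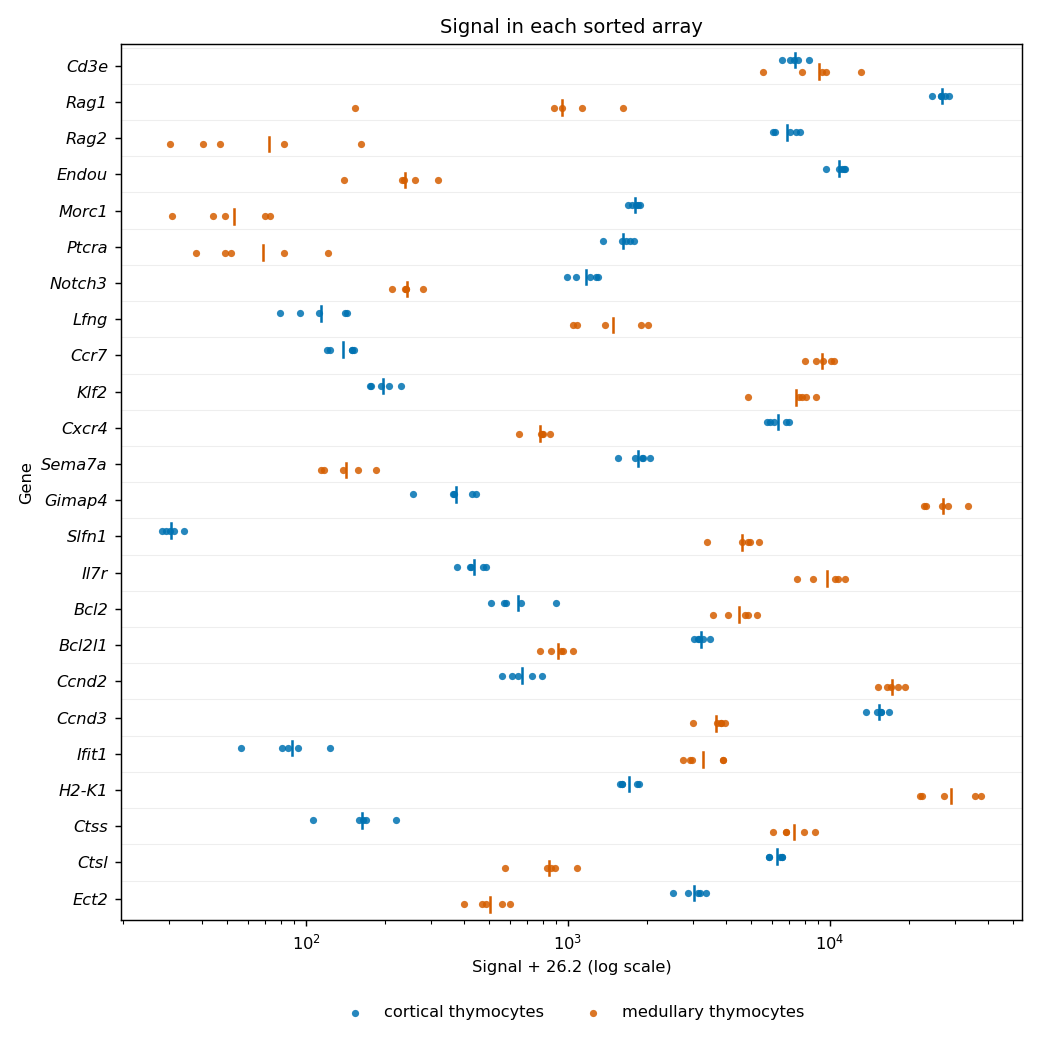
Signal plus 26.2 (horizontal axis, log scale) of 24 genes in each of the 5 cortical (blue) and 5 medullary (orange) arrays, with vertical ticks at the mean of each population. For Cd3e the populations overlap, whereas for the other genes drawn the 5 arrays of a population lie apart from those of the other, as for Ccr7 and Rag2.

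In the Gimap and Schlafen families, known from survival and quiescence of mature T cells, members rose and none fell. Gimap genes rose in 6 of 8 cases and Schlafen genes in 4 of 8. Of the Schlafen genes not called, 1 had all its medullary arrays below its cortical ones. Gimap4 had 340.0, 338, 418, 230.0 and 405 in cortical and 28223, 33642, 26671, 22838 and 23196 in medullary arrays, a rise by 6.19 (SE 0.13, adjusted p = 8.02e-29). Slfn1 had 7.95, 1.91, 3.97, 5.04 and 2.93 in cortical and 4907, 5351, 3365, 4588 and 4832 in medullary arrays. It was near the lowest signals in every cortical array and bright in every medullary one, and its fold change of 7.23 (SE 0.25) was the largest of all genes. Gimap3 rose from 199.8 ± 32.8 to 4498 ± 654 and Slfn8 from 546 ± 96.4 to 3311 ± 434, whereas Gimap6 and Slfn2, already bright in cortical thymocytes at 4080.0 ± 352 and 2609 ± 179, rose by 1.3 and 1.84. Family members share sequence, so their probes may share signal.

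Receptors for chemokines and lipids rose in 13 and fell in 1 of 26 cases. Gpr18, a lipid receptor, rose from 120.0 ± 21 to 4991 ± 360.1 (log2 fold change 5.11, SE 0.14), Ccr8 from 8.5 ± 11.1 to 585 ± 168, Cxcr6 from 88.7 ± 22.7 to 1262 ± 578 and the oxysterol receptor gene Gpr183 from 189 ± 29.5 to 1335 ± 225. The receptor that fell was Cxcr4, which holds thymocytes in the cortex, with 6973, 5899.6, 5712, 6794 and 6083 in cortical and 624, 766, 779, 765 and 830.3 in medullary arrays. The medullary arrays lay in a narrow band below all cortical ones, and the fall was -3.02 (SE 0.12, adjusted p = 2.57e-21). Ccr9, another receptor of cortical cells, was bright in both populations at 20889.8 ± 1868 and 21625 ± 3094 and was not called (0.042, SE 0.12). The other 4 probe sets of Ccr9 pointed the opposite way, and with plain-suffix probe sets alone its log2 fold change was -1.11, so the array gives no settled direction for it.

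Genes of integrins and adhesion rose in 9 and fell in 3 of 28 cases. The integrin genes Itgae, Itgb3 and Itgb7 rose, Itgae from 65.8 ± 16.9 to 4964 ± 1376, Itgb3 from 23.8 ± 13.1 to 1997 ± 358 and Itgb7 from 159.6 ± 23.3 to 2837 ± 615. Itgae and Itgb7 encode the chains of the receptor for E-cadherin. Semaphorins, guidance ligands, were split. Sema4f rose from 32.1 ± 13.7 to 722 ± 90.4 and Sema4a from 233 ± 25.1 to 2745 ± 391, whereas Sema7a had 2029.6, 1522, 1905, 1898 and 1771 in cortical and 88.3, 113, 159, 131 and 90.9 in medullary arrays and fell by 3.71 (SE 0.2). Plxnd1, a semaphorin receptor studied in the migration of thymocytes, fell from 3403 ± 374 to 694 ± 209, and Cd93 fell from 204 ± 23.3 to 65.9 ± 31.2.

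Genes of G protein control and the cell's migration machinery rose in 19 and fell in 1 of 50 cases. Vim, the intermediate filament vimentin, rose from 2697 ± 192 to 21336 ± 4139 (log2 fold change 2.96, SE 0.11), the galectin gene Lgals3 from 25.7 ± 19.7 to 563 ± 96, and the calcium-binding protein genes S100a4 and S100a6 by 3.11 and 2.95. Rgs10, which shortens G protein signals, rose from 3709.9 ± 327 to 10176 ± 1410.3, and Rgs11 by 3.03. Against them Anxa2, a membrane-binding protein and partner of S100 proteins, fell from 13665 ± 671 to 1704 ± 285, and Lgals1 was not called at 13761 ± 1382 and 12748 ± 3325. With plain-suffix probe sets alone 12 of 35 members rose.

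Most genes of the T cell receptor complex and of its first signalling steps were not called, with 8 higher and 6 lower of 47 (median 0.10). Themis, a protein needed for positive selection, fell from 10309.5 ± 850.5 to 3099 ± 261, and the kinase gene Tec, the adaptor genes Nck2 and Sla and the ubiquitin ligase gene Cbl fell as well. The inhibitory receptor gene Cd5 rose from 5297 ± 296 to 12331 ± 1295, the kinase gene Fyn from 2056 ± 228 to 6534 ± 1434 and Malt1, which links the receptor to NF-kB, from 509 ± 41 to 1507 ± 168. The phosphatase gene Ubash3b rose most, by 2.45 (SE 0.23). Zap70, the kinase that docks on CD3 chains, was not called at 2532 ± 223 and 3863 ± 387.

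Downstream in calcium signalling, 8 of 31 genes rose and 4 fell. Orai1, the calcium channel opened by the receptor, rose from 322 ± 38.5 to 1253 ± 154 and the calcineurin subunit genes Ppp3ca and Ppp3cc by 1.4 and 1.48. Itpr2, a calcium release channel, fell by 1.47 (SE 0.23), the potassium channel genes Kcna2 and Kcna3 by 2.0 and 1.28, and Cacna1e by 2.27. For Kcna2 2 of its 4 probe sets were lower, and with averaged probe sets it was at -0.25 and not called. Itpr2 was at -0.90 with averaged or plain-suffix probe sets, and Kcna3 at -0.82 without medullary arrays 1, 2 and 3, neither of them a call. The rise of Trpm1, a cation channel known from the retina and melanocytes, was the largest of the list, from 41.1 ± 16.3 to 535 ± 63.7 with all 3 of its probe sets higher.

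Immediate early genes, which respond within the hour to receptor or stress signals, rose in 22 of 41 cases and none fell (median 1.06). Nr4a3, a nuclear receptor used as a readout of recent receptor signals, had 268, 209, 257, 260.1 and 309.9 in cortical and 1771, 1747, 1554, 1637 and 1658 in medullary arrays. The populations were apart, and it rose by 2.57 (SE 0.14, adjusted p = 7.65e-18). Egr3 rose from 310.2 ± 37.3 to 2336 ± 259, Nr4a1 from 1358 ± 145 to 4147 ± 1302 and the NF-kB subunit gene Relb from 77.7 ± 27.2 to 586 ± 93.6. Egr1 was bright in both, at 4778 ± 790.4 and 9100.3 ± 989.6, and missed the size needed for a call (0.93, SE 0.11). Without cortical array 1 it was called, at 1.02. Between tissues, 25 of the 41 were called higher and 1 lower in whole medulla than in whole cortex, with Nr4a3 at 3.19 (SE 0.12) and Egr3 at 2.26 (SE 0.12). The share of all genes called between tissues was not counted, so the 25 and 1 stand without a background. The interaction of the sorted with the tissue difference, introduced below, was called higher for 1 member and lower for 4. Over all genes it was called higher for 2.22% and lower for 12.6%.

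Transcription factors of the T lineage rose in 17 and fell in 8 of 51 cases. Those that rose included Id2, an inhibitor of E proteins, from 411 ± 96.3 to 7875 ± 1720.2, Zbtb7b, the determinant of the CD4 lineage, from 47.6 ± 25.9 to 819 ± 265, and Runx3, the determinant of the CD8 lineage, from 302 ± 44.7 to 1362 ± 180.2. Irf4 and Ikzf4 rose by 3.52 and 3.09. Myb, which is needed at the stage with both coreceptors, fell from 14655 ± 759 to 2283 ± 193, Ets2 from 15416 ± 841 to 2585 ± 329 and the E protein gene Tcf4 from 1202 ± 92.9 to 291 ± 71.6. Bcl11b and Gata3, which act throughout T cell development, were not called, with Gata3 at 1619.9 ± 168 and 1635 ± 430.4.

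Several gene families held a member that rose beside a close relative that fell, and the pairs described here were chosen after their values were seen. Among D-type cyclins, which start the cell cycle, Ccnd2 had 700.1, 621, 585, 532 and 769.7 in cortical and 19354, 18118, 16528, 15289 and 17011 in medullary arrays, and Ccnd3 had 13649, 15669, 16711, 15026 and 15664 and 3816, 3826, 2976, 3948 and 3688. Ccnd2 rose by 4.7 (SE 0.14) with all 7 of its probe sets higher and Ccnd3 fell by 2.07 (SE 0.12), and for each gene the populations were apart. Among survival proteins, Bcl2 had 875, 633, 553, 541 and 481 in cortical and 4055, 3564, 4696, 4853 and 5231 in medullary arrays, a rise by 2.83 (SE 0.17). Its relative Bcl2l1, which encodes Bcl-xL, had 3459, 2988, 3260.5, 3109 and 3143 and 929, 832, 759, 917 and 1015 and fell by 1.82 (SE 0.17), again without overlap.

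The repressor gene Bach2, which restrains effector genes, rose by 4.11 (SE 0.11) while Bach1 fell by 1.46 (SE 0.11). The calcium-responsive factor gene Nfatc2 rose by 1.79 and Nfatc3 fell by 1.36. With averaged probe sets Nfatc2 was at 0.999 and was not called. Of the ligases Cblb and Cbl, which dampen receptor signals, the first rose by 1.2 and the second fell by 1.52. Of the ATP-gated channels, P2rx7 rose from 87.8 ± 12.6 to 356 ± 39.9 and P2rx1 fell from 1262 ± 112 to 60.0 ± 47.7. Lmnb1, a lamin of the nuclear envelope, fell by 1.68, whereas Lmna rose by 1.9 in its brightest probe set but was at -0.54 with plain-suffix probe sets alone.

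**Figure D3:**
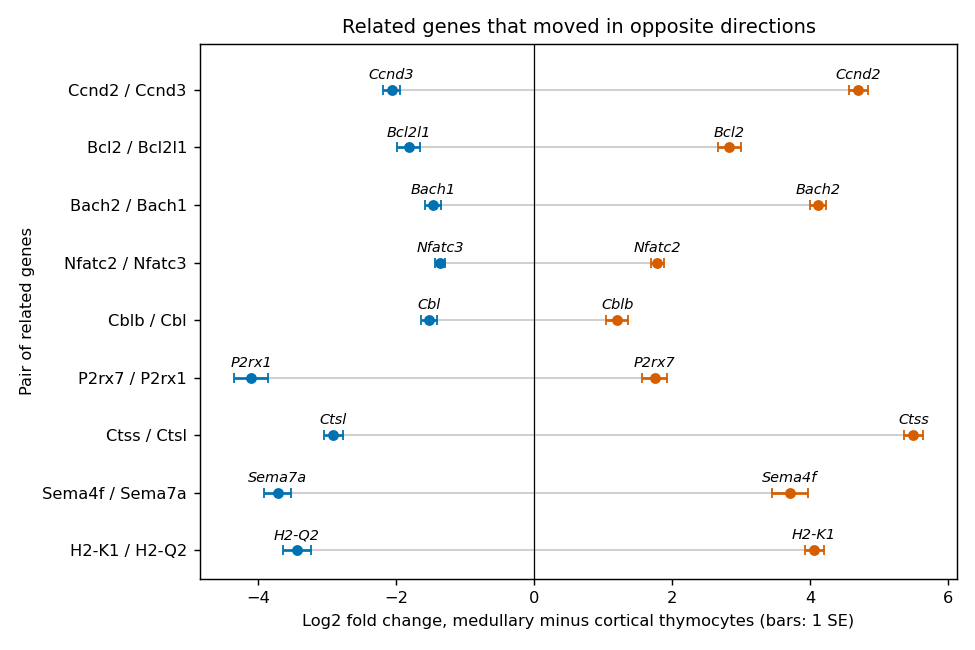
Log2 fold change (medullary minus cortical thymocytes, horizontal axis) of 9 pairs of related genes, with bars of 1 SE of the fit. Orange points rose and blue points fell, from Ctss at 5.5 and Ccnd2 at 4.7 on the right to P2rx1 at -4.1 on the left.

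Genes of cell death and of the Bcl2 family rose in 7 and fell in 3 of 32 cases. Besides Bcl2, the genes that rose included both promoters and inhibitors of death. Bcl2l11, which encodes the killer protein Bim, rose from 2823 ± 203 to 6334 ± 1038 and Casp8 from 1810.4 ± 151 to 3924 ± 284, and the inhibitor gene Birc3 and the adaptor gene Traf1 rose by 1.5 and 2.1. Bcl2l11 was not called with averaged probe sets (0.77), with plain-suffix probe sets alone (0.83) or without medullary arrays 1, 2 and 3 (0.95). The death-promoting genes Bid and Bmf fell by 1.55 and 1.39. Mcl1 was not called at 8232 ± 446 and 12995 ± 1648.

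Cytokine receptors rose in 10 and fell in 2 of 36 cases. Il7r, the receptor chain for the survival cytokine interleukin-7, had 462, 398, 401, 350.0 and 446 in cortical and 10682, 11357, 10422, 7476 and 8598 in medullary arrays and rose by 4.46 (SE 0.19, adjusted p = 1.57e-20). The medullary arrays were far brighter than every cortical one. Il6ra and Il2rb rose from low signals, Il6ra from 16.6 ± 10.6 to 843 ± 99.7 and Il2rb from 35.8 ± 27.3 to 878 ± 202, and Tgfbr2 rose from 1659 ± 69.7 to 8428 ± 633. Ifngr1, the ligand-binding chain of the interferon gamma receptor, fell from 3636 ± 109 to 1035 ± 90.3, and its partner Ifngr2 was not called at 273 ± 27 and 397 ± 96.4. Il4ra was not called either (0.048, SE 0.13). Among Jak, Stat and Socs genes 4 of 23 rose and none fell. They were Jak1, Jak3, Cish and Ptpn2, with Cish, a feedback inhibitor, up from 129 ± 39.8 to 797 ± 153, and Socs1 was not called at 795 ± 116 and 420.2 ± 65.9. Ptpn2 was at 0.95 to 0.999 and not called without cortical array 2 or 3 or medullary array 2 or 3. Jak1 was at 0.94 and Ptpn2 at 0.91 without medullary arrays 1, 2 and 3, and neither was called. The count of 4 was 2 with averaged probe sets or with plain-suffix probe sets alone.

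Interferon response genes rose in 38 of 50 cases and none fell (median 2.11), and the 5 medullary arrays lay above the 5 cortical ones for 45 of the 50. Interferons act through the factor complex ISGF3 and through IRF proteins, which bind elements with repeated GAAA. Because so many members rose together, the 250 bases before the start of each gene were searched on both strands for GAAA, any 2 bases and GAAA again, in the promoter table of RefSeq (build GRCm38.p6). Of the 38 genes that rose 27 had an entry, and 13 of these (48.1%) held the motif, against 2.98% of all 32851 promoters. Among tested genes with an entry, counted by gene, the share was 3.12%. In the window that runs on to 50 bases after the start, 15 (55.6%) held it, against 3.44% of all promoters. The members were listed as known interferon genes, and those that did not rise were not compared, so whether the share goes with the rise was not tested. A match is a description of the letters and says nothing of binding. The 3 genes with the largest fold change among those with a match are shown, as 90 bases upstream of the start on the gene's strand with the matches in capitals.
Ifit1, chr19:34640764-34640853 (plus strand): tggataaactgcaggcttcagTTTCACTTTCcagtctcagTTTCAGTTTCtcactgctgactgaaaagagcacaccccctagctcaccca
Ifit3, chr19:34583367-34583456 (plus strand): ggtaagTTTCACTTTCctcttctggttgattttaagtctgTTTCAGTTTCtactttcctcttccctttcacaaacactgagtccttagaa
Trim30a, chr7:104465194-104465283 (minus strand): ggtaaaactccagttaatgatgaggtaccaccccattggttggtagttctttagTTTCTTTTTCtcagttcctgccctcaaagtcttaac
Ifit1, whose product binds foreign RNA, has 2 matches, and Ifit3, its neighbour on chromosome 19, also has 2. Trim30a, a ubiquitin ligase gene of innate immunity on chromosome 7, has 1.

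Ifit1 had signals of 97.7, 30.2, 55.1, 67.3 and 58.9 in cortical and 3869.8, 3876, 2723, 2891 and 2954 in medullary arrays. It rose by 5.25 (SE 0.15, adjusted p = 1.21e-25) with the populations apart. Ifit3 rose from 103 ± 36.1 to 1546 ± 217 and Trim30a from 1277 ± 91.1 to 10690.1 ± 3838. Irf7, the factor that amplifies interferon production, had 232, 181, 153, 254 and 231 in cortical and 2498, 2449.6, 1737, 1583 and 1617 in medullary arrays and rose by 3.07 (SE 0.17). The antiviral synthetase genes Oas2 and Oasl2 rose by 3.74 and 3.85, the GTPase gene Iigp1 by 3.97, Rtp4 by 3.83 and Dhx58, an RNA helicase, by 3.69. Beyond the list, Ifi27l2a and Ifi213, genes known to respond to interferon, were among the 15 largest rises, Ifi27l2a from 287 ± 60.4 to 16495 ± 4918 and Ifi213 from 96 ± 34.4 to 4537 ± 576.

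Genes of MHC class I and of its peptide supply rose in 12 and fell in 1 of 20 cases. H2-K1, a classical heavy chain, had 1812, 1586, 1586, 1555 and 1843 in cortical and 35712, 37830.4, 27169, 21972 and 22326 in medullary arrays. It rose by 4.06 (SE 0.14) with all 4 of its probe sets higher. The light chain gene B2m rose from 11346 ± 1201 to 38203 ± 6930.5, the peptide-loading gene Tapbp from 2429 ± 441 to 10287 ± 1296, and Nlrc5, which activates transcription of the class, from 153 ± 21.8 to 3850.3 ± 357. The member that fell was H2-Q2, a nonclassical heavy chain, with 4449.7, 4181, 3647, 4485 and 4214 in cortical and 152, 261, 624, 456 and 525 in medullary arrays (-3.44, SE 0.21). Class I genes are near-identical in parts and H2-Q2 had 1 probe set, so which gene of the Q region gave that signal is uncertain.

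Of 13 genes of MHC class II presentation 6 rose and 1 fell, and the chains that form the presenting molecule were not among them. H2-Aa, H2-Ab1 and H2-Eb1 were not called, with H2-Aa at 155 ± 54.9 and 164 ± 47.4 in sorted cells against 32203 ± 5934 in whole medulla (n = 7). The genes that rose were Cd74, the invariant chain, from 154 ± 28.8 to 611 ± 152, the loading factors H2-DMa, H2-Oa and H2-Ob, the thiol reductase gene Ifi30 and Ctss. Without cortical array 5 or medullary array 3 H2-Oa was at 0.99 or 0.97 and was not called, nor was it without medullary arrays 1, 2 and 3 (0.81), and H2-DMa was not called with averaged probe sets (0.82). The cathepsins were opposed. Ctss had 194, 134, 80.1, 143 and 138 in cortical and 6777, 7948, 8709, 6049 and 6781 in medullary arrays and rose by 5.5 (SE 0.14), and Ctsl had 6533, 6557, 5809, 5836 and 6417 and 548, 803, 869, 832 and 1054 and fell by 2.91 (SE 0.13). Both are proteases of the endosome that trim the invariant chain in presenting cells, and for each the populations were apart.

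Receptors and ligands of costimulation and coinhibition rose in 21 and fell in 2 of 34 cases. Btla rose from 310.1 ± 30.7 to 4022 ± 204, Icos from 409 ± 46.5 to 4226 ± 286 and Tnfsf11, the ligand RANKL that acts on medullary epithelium, from 63.7 ± 14.8 to 885 ± 213. Tnfrsf25, Tnfrsf4 and Tnfrsf9 rose by 3.52, 3.28 and 2.9. Cd40lg, another ligand for stroma and B cells, rose from 13.1 ± 2.31 to 82.4 ± 62.7 and stayed dim. Slamf6 fell from 3199.7 ± 234 to 1212 ± 169.9 and Lag3 from 132 ± 38 to 47.3 ± 25, the latter with overlapping arrays. Slamf6 was at -0.77 and not called with plain-suffix probe sets alone, and Lag3 at -0.99 and not called without medullary arrays 1, 2 and 3. Cd28 was bright in both and not called (0.68, SE 0.12).

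Of 20 regulatory T cell genes 13 rose and 2 fell. Foxp3, the factor that defines these cells, had 14.4, 47, 42, 46.1 and 43.4 in cortical and 236, 293, 193, 183 and 223 in medullary arrays and rose by 1.97 (SE 0.21, adjusted p = 5.18e-10). Gpr83 and Izumo1r, receptors found on these cells, rose by 4.1 and 3.9. Il2ra and Nrp1, also counted as markers of regulatory T cells, fell, Nrp1 from 1804 ± 110.1 to 617 ± 65.1, and Ikzf2 was not called at 2841 ± 194 and 5306 ± 429. With averaged probe sets Ikzf2 was called higher, at 1.38. With plain-suffix probe sets alone 8 of 16 members rose.

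Genes of innate-like and cytotoxic lymphocytes rose in 17 and fell in 1 of 30 cases. Ctsw, a protease of cytotoxic cells, rose from 167 ± 26.5 to 7211 ± 803, the receptor gene Klrd1 from 65.3 ± 21.2 to 1503 ± 365, Nkg7 from 171 ± 39.1 to 1944 ± 449 and Zbtb16, the factor of invariant natural killer T cells, from 41.4 ± 15.2 to 338 ± 127. Klrd1 was lower in medullary array 1, at 864, than in the other 4. The gene that fell was Gzma, a granzyme, with 4307, 5104, 3733, 4096 and 5308 in cortical and 1189.9, 1250.2, 2005, 1863 and 2145 in medullary arrays, and it fell by 1.43 (SE 0.16). Under the stricter filter 11 of 17 members rose. Of 7 genes of gamma-delta T cells 6 rose. Maf had the largest rise, from 111 ± 39.7 to 739 ± 270.4, followed by the scavenger receptor gene Cd163l1, from 125 ± 22.1 to 527 ± 134, and Sox13 rose from 157 ± 37.6 to 392 ± 54.

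Genes of mitosis fell in 56 of 62 cases and none rose (median -1.75). The promoters were searched for TTTGAA, the core of the element known as CHR through which mitotic genes are repressed in resting cells, on both strands. Of the 56 genes that fell 48 had an entry in the promoter table, and 18 of these (37.5%) held the motif in the 250 bases before the start, against 16% of all promoters. Among tested genes with an entry, counted by gene, the share was 13.2%. In the window that runs on to 50 bases after the start, 34 (70.8%) held it, against 17.9% of all promoters. Members that did not fall were not compared, so whether the share goes with the fall was not tested. The 3 genes with the largest fall among those with a match upstream of the start are shown in the same way, with matches in capitals.
Ect2, chr3:27153945-27154034 (minus strand): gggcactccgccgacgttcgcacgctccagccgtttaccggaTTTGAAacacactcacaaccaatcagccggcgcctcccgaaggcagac
Ccnb2, chr9:70421674-70421763 (minus strand): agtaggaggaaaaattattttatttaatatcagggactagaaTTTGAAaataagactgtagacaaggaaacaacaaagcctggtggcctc
Kif11, chr19:37376292-37376381 (plus strand): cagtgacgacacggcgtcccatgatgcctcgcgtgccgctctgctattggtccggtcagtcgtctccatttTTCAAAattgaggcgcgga
Each has 1 match in the bases searched.

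Ect2, an exchange factor of cell cleavage, had 2848, 3108, 2483, 3339.7 and 3160.3 in cortical and 443, 374, 573, 532 and 458 in medullary arrays, and it fell by 2.59 (SE 0.17, adjusted p = 2.09e-15). The populations were apart. Ccnb2, a mitotic cyclin, fell from 6297 ± 693 to 1172 ± 219.7, the spindle motor gene Kif11 from 3399 ± 434 to 686 ± 61.3, the kinase gene Cdk1 from 4889.7 ± 352 to 1097 ± 229 and the proliferation marker Mki67 from 12836 ± 1159 to 3941 ± 1014. Medullary thymocytes kept a clear signal of these genes, with Mki67 in each medullary array far above the median of its array.

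Genes of DNA replication moved the same way but less. They fell in 20 of 54 cases (median -0.81), and the medullary arrays lay below the cortical ones for 42 of the 54, so that many falls were smaller than the size needed for a call. Rrm2, a subunit of ribonucleotide reductase, fell from 14703 ± 775 to 3919 ± 714, the licensing gene Cdc6 from 2569 ± 209 to 689.7 ± 64.6 and Uhrf1 by 1.94. Mcm2 and Pcna were not called, Mcm2 at 3492 ± 454 and 2123 ± 338 and Pcna at 24606 ± 671 and 19353 ± 2957. The plot of gene lists sets these shares beside the background.

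**Figure D4:**
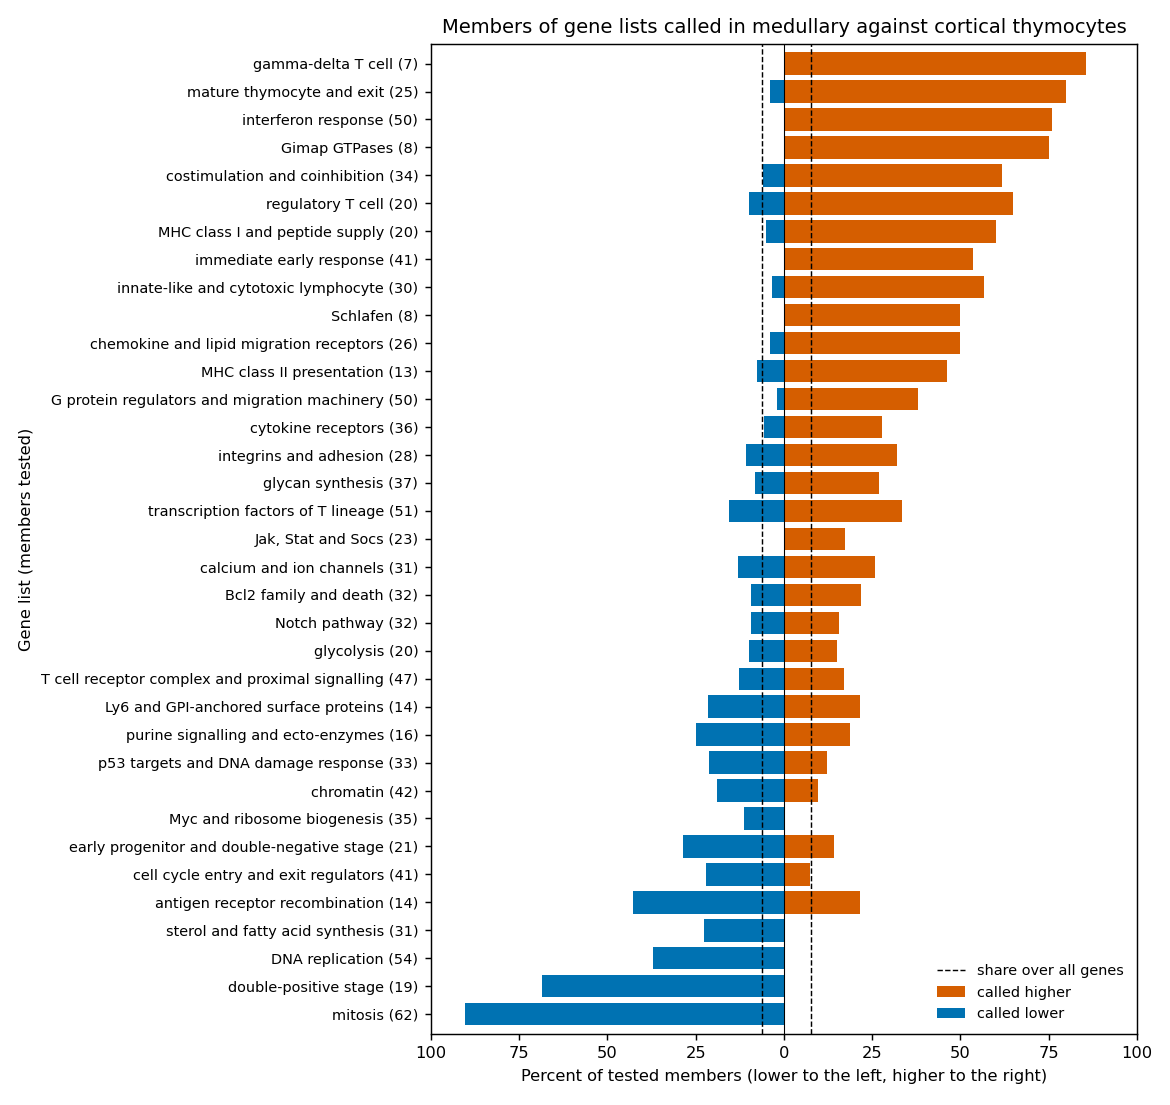
Percent of the tested members of each of 35 gene lists called higher (orange, to the right) or lower (blue, to the left) in medullary thymocytes, with the number of members tested after each name. Dashed lines mark the shares over all genes, 7.67% and 6.28%, and the bars of interferon response (38 of 50 higher) and mitosis (56 of 62 lower) reach far past them.

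Regulators of cycle entry and exit fell in 9 and rose in 3 of 41 cases. The factors E2f8, E2f2 and E2f7 and the cyclin gene Ccne2 fell, E2f8 from 2616 ± 242 to 372 ± 83 and Ccne2 from 2016 ± 268 to 352 ± 63.6. The 3 that rose were Ccnd2, Klf2 and Foxo1, a factor of quiescence and of Il7r and Klf2 transcription, which rose from 902 ± 135 to 4170.2 ± 954. The inhibitor gene Cdkn1b was not called at 3411 ± 214 and 2195 ± 359, but with averaged probe sets it was called lower, at -1.02. Of 33 genes of p53 and DNA damage response 4 rose and 7 fell, against 7.67% and 6.28% of all genes. Those that fell, such as Exo1, Rad54l, Brca1 and Blm, serve DNA repair, with Brca1 at 1168 ± 152 and 460.3 ± 77.4. Those that rose were Atm, Gadd45b, Gadd45g and the stress gene Sesn3, the last from 704 ± 65.5 to 4096 ± 294. With plain-suffix probe sets alone Gadd45g was at 0.18, against 2.69, and was not called.

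Of 42 chromatin genes 4 rose and 8 fell, against 7.67% and 6.28% of all genes. Ezh2, the histone methyltransferase of the Polycomb group, fell from 7665 ± 262 to 2952 ± 310.1 and Smarca4, a remodelling ATPase, from 7993 ± 567 to 3264 ± 650.0. The remodellers Chd7 and Chd3 rose, Chd7 from 13.3 ± 9.61 to 395 ± 128 and Chd3 from 747 ± 131 to 3075 ± 747, and Tet2, which oxidises methylcytosine, rose by 1.55 (SE 0.25). Without medullary arrays 1, 2 and 3 Tet2 was at 0.88 and was not called.

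Genes of glycan synthesis rose in 10 and fell in 3 of 37 cases. St8sia6, a sialyltransferase, had 14.3, 42.9, 26.3, 63.9 and 38.4 in cortical and 969, 1503, 1185, 1429 and 1359.9 in medullary arrays and rose by 4.41 (SE 0.16, adjusted p = 2.44e-22). Other enzymes that add sialic acid rose too, St6gal1 from 1966 ± 184 to 8191 ± 837 and St3gal1, which caps the O-glycans that peanut lectin binds on cortical cells, from 156 ± 6.21 to 876 ± 206. B4galnt1, an enzyme of ganglioside synthesis, rose from 777 ± 145 to 5117 ± 1152. C1galt1, which builds the core of O-glycans, fell from 3678 ± 310.3 to 1388 ± 88.6, and Mgat5, which branches N-glycans, from 1239 ± 116 to 546 ± 103. Mgat5 was at -0.91 and not called without medullary arrays 1, 2 and 3. The count of falls was 5 with an offset of 6.55 and 5 without medullary array 3.

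Sterol and fatty acid synthesis fell in 7 of 31 cases and none rose, and the members were the desaturase gene Fads2, from 488 ± 44.2 to 25.2 ± 34.3, the sterol enzyme genes Sqle and Idi1, by 2.24 and 2.15, and Insig1, Fdps, Fads1 and the regulator Srebf2. For Fads1 1 of its 2 probe sets was lower, and with averaged probe sets it was at -0.58 and not called. Srebf2 was not called at -0.75 without medullary arrays 1, 2 and 3, at -0.92 with averaged probe sets or at -0.96 with array weights. Glycolysis rose in 3 and fell in 2 of 20 cases, against 7.67% and 6.28% of all genes. The lactate transporter gene Slc16a1 fell from 8648 ± 389 to 2123 ± 333 and Ldhb from 8048 ± 519 to 2161 ± 112, whereas the 3 that rose, Aldoa, Eno2 and the glucose transporter gene Slc2a3, had log2 fold changes of 1.04, 1.02 and 1.18. Aldoa and Eno2 lay close to the threshold. That count of 3 was 1 without medullary array 1 and 0 with plain-suffix probe sets alone. Of 35 genes of Myc and ribosome biogenesis 4 fell and none rose, against 6.28% and 7.67% of all genes. Myc was not called at 1397 ± 164 and 2094 ± 216 while Mycn fell by 1.95 (SE 0.38). With averaged probe sets Mycn was at -0.69 and was not called.

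Genes of purine signalling and ecto-enzymes rose in 3 and fell in 4 of 16 cases. Ada, the adenosine deaminase, fell from 4128 ± 513 to 824 ± 95.7, and Nt5e, the surface enzyme CD73 that makes adenosine, rose from 31.6 ± 22.7 to 339.8 ± 67.8. The 2 genes act on adenosine in opposite ways, and the populations were apart for both. Of 14 genes of Ly6 and other GPI-anchored proteins 3 rose and 3 fell. Cd52 rose from 8812 ± 671 to 39479 ± 9353, Cd48 by 1.21 and Izumo1r as above, and Ly6d, Cd24a and Thy1 fell.

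The difference between the sorted populations was set against that between whole medulla and whole cortex, which share no array with them, by an interaction term. The sorted difference exceeded the tissue difference for 299 genes (2.22%) and lay below it for 1698 (12.6%). Of the 1032 genes that rose in sorted medullary cells 1 was called lower in whole medulla, and of the 845 that fell 29 were called higher there. Tissue differences of opposite sign that were not called are not in these counts. Tissue holds stroma and blood cells, and the RNA kit goes with the sample type, whose parts in this term cannot be told apart. Some genes with the largest falls gave close values in both, with Rag2 at -6.59 (SE 0.22) in tissue and Endou at -5.25 (SE 0.11).

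**Figure D5:**
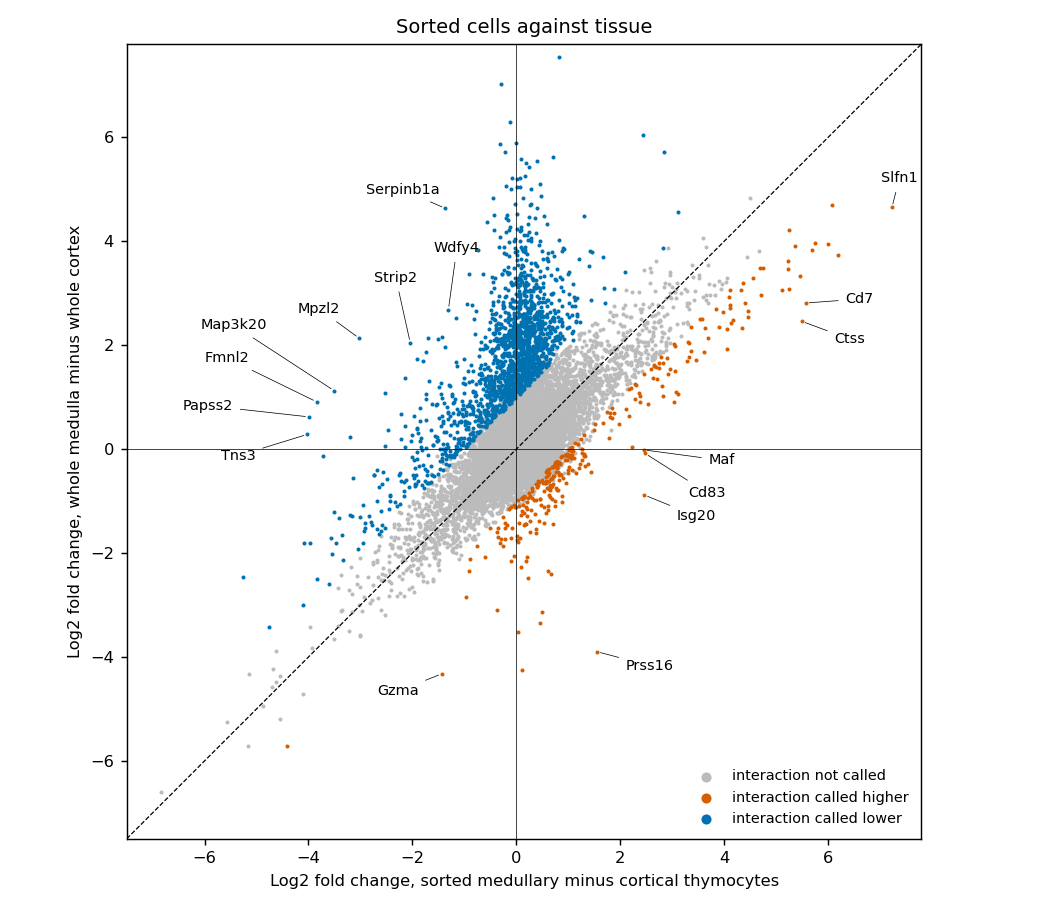
Log2 fold change between sorted populations (medullary minus cortical thymocytes, horizontal axis) against that between tissues (whole medulla minus whole cortex, vertical axis) for 13463 genes, with the line of equal change. Orange points are the 299 genes and blue points the 1698 genes whose interaction term was called higher or lower, and labels name the 16 described in the text, such as Serpinb1a, which lies at -1.37 and 4.64.

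Of the 8 genes with the highest interaction term among those called in the sorted comparison, Prss16, a serine protease of cortical epithelium, was at the top. Its signal was 36.1, 57.7, 61.2, 23.5 and 44.2 in sorted cortical and 191, 152, 263, 140.5 and 159.9 in sorted medullary arrays, against 14006 ± 1366 in whole cortex and 927 ± 172 in whole medulla (interaction 5.45, SE 0.19, adjusted p = 1.30e-21). Sorted cells held a small fraction of the tissue signal, and their order was the reverse of that in tissue. Slfn1, Cd7 and Ctss rose in both comparisons and more in sorted cells, with interactions of 2.58, 2.76 and 3.04. For Cd7 the signal was 19.3 ± 11.3 in cortical and 2109 ± 317 in medullary thymocytes, and for Ctss whole cortex already had 2828 ± 541.

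Maf and Cd83 rose in sorted cells but hardly differed between tissues, where Maf had 918 ± 135 in cortex and 923 ± 216 in medulla and Cd83 3193 ± 557 and 2996 ± 329.8. Gzma was lower on the medullary side in both, by -4.32 (SE 0.13) in tissue and -1.43 in sorted cells (interaction 2.89, adjusted p = 1.22e-13). Isg20, an interferon-induced nuclease, rose in sorted cells from 354 ± 29.6 to 2072 ± 158 and was at -0.88 in tissue. Its interaction of 3.35 became 0.08 with plain-suffix probe sets alone, where its sorted fold change was -0.27, so it depends on the probe set.

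The 8 genes with the lowest interaction term among those called in the sorted comparison fell in sorted medullary cells, and their tissue differences had the opposite sign, from 0.28 for Tns3 to 4.64 for Serpinb1a. Serpinb1a, a protease inhibitor, had 101, 109, 95.7, 127 and 121 in sorted cortical and 6.57, 67.6, 53.5, 17.5 and 12.3 in sorted medullary arrays, but 219.6 ± 50.7 in whole cortex and 6021 ± 828 in whole medulla (interaction -6.01, SE 0.27). With averaged probe sets its sorted fold change was -0.69 and was not called. The adhesion gene Mpzl2 and the kinase gene Map3k20 had interactions of -5.16 and -4.63, and Strip2 and Wdfy4 -4.08 and -3.99. The actin regulators Fmnl2 and Tns3 and the sulfate donor synthase gene Papss2 fell more than other genes of this group, Papss2 from 718 ± 82.2 to 21.2 ± 9.2 and Tns3 from 1280.1 ± 199 to 63.5 ± 47.9. In tissue Papss2 was at 594 ± 51.6 in cortex and 927 ± 71.9 in medulla. For these genes the medullary side was the brighter in tissue and the dimmer in sorted thymocytes.

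Sema7a and Tcf4 also had interactions below 0, outside that rule, and were chosen after their values were seen. Sema7a fell by 3.71 in sorted cells against -0.13 (SE 0.17) in tissue, and Tcf4 fell by 1.98 against 0.64 (SE 0.16), with interactions of -3.58 and -2.62 that were both called. Cd8b1, not called in sorted cells, was lower in whole medulla by -2.85 (SE 0.12), and its interaction of 1.88 (adjusted p = 2.02e-10) was called as well.

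The 3 layers of dissected cortex (n = 3 each) add the position of some of these genes within the cortex. These values are a description with no test, and the genes were chosen after their values were seen. Gimap4 had 542 ± 13.7 in subcapsular, 1527 ± 104 in central and 6957 ± 273 in perimedullary cortex, Itgae 178 ± 11.6, 255 ± 33.9 and 2392 ± 329, and Slfn1 15.3 ± 13.3, 23.4 ± 13.1 and 233 ± 10.1. For these genes of medullary thymocytes the perimedullary layer was the brightest part of the cortex. Ptcra had 2014 ± 196, 1302 ± 238 and 831 ± 63.4, Il2ra 789 ± 141, 289.9 ± 61.5 and 268 ± 48.7, and the sterol gene Sqle 2098 ± 62.8, 869 ± 97.4 and 534 ± 56.9. For these genes of cortical thymocytes the subcapsular layer was the brightest. Endou, at 10149 ± 524, 12051 ± 644 and 10193 ± 1044, and Mki67, at 13662 ± 790.2, 12961 ± 506 and 12300.2 ± 913, had means that lay closer together.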

How the data were processed

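RNA of 33 thymus samples was hybridised to Affymetrix mouse arrays after priming with oligo-dT and labelling with biotin, per the labels' protocols. The deposited table holds array signal (intensity) on a linear scale for 45037 probe sets, made with Affymetrix Expression Console 1.0 and MAS5 per the submitters' processing notes. The scaling target, background settings and scan dates are not given in the sources used here. The number of arrays limits the precision.

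Signal plus an offset of 26.2 was put on the log2 scale, the offset being the 25th percentile of a typical array (median of 33). A probe set was kept where 3 or more arrays had it above their own median (30045), those with 1 gene symbol in the platform annotation were used (24883), and the brightest of each gene stood for it, which left 13463 genes. For 34741 probe sets the gene number was found in RefSeq, which changed 0 symbols. All 33 arrays entered 1 model of 7 group means (limma 3.58.1 in R 4.3.3), with 26 residual degrees of freedom and a spread moderated along the mean. The interaction term is the sorted difference minus that of whole medulla and whole cortex. Tests were 2-sided. On simulated data for the sorted comparison (13463 genes), 95 of 100 genes changed by 1.5 on the log2 scale were recovered. Of those changed by 3, 100 of 100 were recovered, and there was 1 false call among 13263. These counts describe the simulation only, and recovery in the measured arrays was not tested.

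The 45 gene lists held 1204 genes, 1070 of them tested, 38 below the filter and 96 without a probe set of a single gene, and 83 stood in more than 1 list. The members, lists, alternatives and naming rule were chosen with earlier results of these data known. The rule takes the 15 largest rises and falls among calls without overlap of arrays, up to 6 called members of each list in each direction with preset anchor genes, the genes of the sort gates, the 8 highest and 8 lowest interaction terms among genes also called in the sorted comparison, the 6 most variable genes of each population, and up to 3 promoters for each motif. Many genes that it takes are covered by the counts. No arrays held identical values. Alternatives were a lower offset (6.55), quantile normalization, other filters, the mean of the probe sets, plain-suffix probe sets alone, array weights, no trend, a fit of the sorted arrays alone, a replicate block, and arrays left out.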

Additional observations from a re-analysis of the deposited data

Results flagged for a closer look

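In 5 arrays of a population, a described gene is given here where the gap of its highest or lowest array to the next took more than 0.71 of the range on the log2 scale. Of 564 sets of 5 arrays, 48 met this. For independent, normally distributed values about 1 in 20 would meet it. The genes described include the most variable genes of each population, picked for their spread, so the count cannot be judged against that share. Medullary arrays 1, 2 and 3 held 10, 6 and 8 of them, and the medullary arrays 4 and 5 held 1 and 2. Cortical arrays 1 to 5 held 6, 5, 4, 4 and 2. Values are array signal.

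Medullary array 1 was the lowest of its 5 for Aqp11 (142), Cd44 (1133), Cxcr4 (624), Iigp1 (1976), Klrd1 (864), Rag1 (127), Swsap1 (5.13) and Tle4 (1168). Medullary array 1 was the highest of its 5 for Blm (564) and Cd163l1 (759). Medullary array 2 was the lowest of its 5 for Bmf (523) and Cd8a (5091). Medullary array 2 was the highest of its 5 for Alas2 (63.2), C1qa (8.85), Cd28 (20588) and Orai1 (1523). Medullary array 3 was the lowest of its 5 for Ccnd3 (2976), Chd3 (1781), Klf2 (4833), Notch1 (1422), Oasl2 (851), Slc15a2 (4.25) and Slc2a3 (1510.2). Medullary array 3 was the highest of its 5 for Itgae (7383). Medullary array 4 was the highest of its 5 for Camp (68.7). Medullary array 5 was the lowest of its 5 for Gm38604 (22.3). Medullary array 5 was the highest of its 5 for BB031773 (39.4). For Rag1 the other 4 medullary arrays ran from 855 to 1599, and for Klf2 from 7596 to 8815.

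Cortical array 1 was the lowest of its 5 for C1galt1 (3147) and Foxp3 (14.4). Cortical array 1 was the highest of its 5 for Ccr8 (28.3), Il4ra (1324), Rgs10 (4289.5) and Tapbp (3194). Cortical array 2 was the lowest of its 5 for Adamts16 (16.3), Eno2 (14.7), Gadd45b (77.7) and Iigp1 (79.0). Cortical array 2 was the highest of its 5 for Cd7 (39.4). Cortical array 3 was the lowest of its 5 for AW011738 (13.4) and Ezh2 (7202). Cortical array 3 was the highest of its 5 for Swsap1 (249) and Themis (11792). Cortical array 4 was the lowest of its 5 for Endou (9609.9) and Slc2a3 (892). Cortical array 4 was the highest of its 5 for Alas2 (16.6) and H2-Ab1 (271). Cortical array 5 was the highest of its 5 for Itgae (95.5) and Krt14 (59.5).

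For 16 genes the difference between sorted medullary and cortical thymocytes itself differed from that between whole medulla and whole cortex, by the interaction term in limma. The terms above 0, in log2 units, were those of Prss16 (5.45), Isg20 (3.35), Ctss (3.04), Gzma (2.89), Cd7 (2.76), Slfn1 (2.58), Cd83 (2.56) and Maf (2.46). The terms below 0 were those of Serpinb1a (-6.01), Mpzl2 (-5.16), Fmnl2 (-4.75), Map3k20 (-4.63), Papss2 (-4.61), Tns3 (-4.31), Strip2 (-4.08) and Wdfy4 (-3.99). The sorted cells and the tissue were prepared with different RNA kits, and the part of this in the terms cannot be told apart.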

How the results depend on the processing

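Of 21 other settings of the sorted comparison, each kept the counts within 1.5 times of 1032 genes higher and 845 lower. The counts ran from 739 (stricter filter, 9048 genes tested) to 1286 (offset 6.55) higher and from 694 to 970 lower, and leaving out 1 array gave 1016 to 1090 and 835 to 868. Without the 3 medullary arrays of wide upper tail (1, 2 and 3), 984 genes were higher and 798 lower, of which 861 and 717 were shared with the calls on all arrays. The fit of the sorted arrays with the replicate block called 1036 higher and 846 lower, against 1034 and 846 without it. Same-numbered arrays deviated with correlations of -0.071 to 0.076 and not every array correlated best with its own number. Weak correlations cannot exclude a pairing, and the labels name none, so whether arrays were paired is unknown. The median difference of all genes ran from 0.0081 to 0.096, and the genes called higher made up 49.8% to 57% of the calls.

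Interaction terms called lower dropped from 1698 to 883 with the stricter filter, which tests fewer genes, and were 1647 to 1699 with 1 array left out. Those called higher, 299, ran from 204 to 356, and from 272 to 352 with 1 array left out.

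Over 282 described genes and all settings, 5762 values kept their side of the threshold, 18 gained a call, 83 lost one and 4 changed sign. A sign was counted as changed only where the gene was called in either fit. The 4 all came with plain-suffix probe sets alone, which use another probe set of the gene. These were Ccr9 at -1.11, Eng at -0.81, Isg20 at -0.27 and Lmna at -0.54. Among the interaction values of the 16 genes, that of Isg20 lost its call there, at 0.080. Plain-suffix probe sets also called higher 1 early progenitor gene against 3, 2 Jak and Stat genes against 4 (as did the mean of probe sets), 8 regulatory T cell genes against 13, 12 G protein genes against 19, 3 Notch genes against 5 and 0 glycolysis genes against 3. The stricter filter called higher 11 innate-like genes against 17, and the offset of 6.55 called 5 glycan genes lower against 3. Signals near background limit the low genes, where a log2 difference after the offset understates the change. The sources used here do not tie arrays to animals, so p-values measure a spread between arrays, pooled over all 33 of them. Scan dates were not tested.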

Other observations

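Probe sets without a single gene symbol were not part of the gene counts. Of the 4478 that passed the filter with no symbol, 389 were called higher and 177 lower in medullary thymocytes in the same limma fit. Of the 684 with several symbols, 58 were higher and 37 lower. Their genes are not named here.

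The genes that varied most among arrays of 1 population are given here by their values. Slc15a2, a peptide transporter gene, had 145, 1517, 2122, 1277 and 415 in cortical and 387, 916, 4.25, 872 and 749 in medullary arrays. Depp1, a target of the Foxo factors, had 819, 132, 93.2, 438 and 121 and 198, 242, 81.4, 356 and 112. For both genes the populations overlapped and neither was called. Swsap1, a repair gene, had 5.13, 251, 312, 317 and 317 in medullary arrays, where array 1 stood alone. Fgl2, a secreted regulator made by T cells, had 51.6, 9.62, 209.6, 213 and 403 in medullary arrays and was called higher (log2 fold change 1.23, SE 0.38) although its arrays overlapped with the cortical ones. 2610316D01Rik had 34.2, 530.4, 317, 162 and 18.9 in medullary arrays, and it too was called higher with overlap. Its call was lost without medullary array 2 or 3, and that of Fgl2 without medullary array 5. Fgl2 also lost its call with quantile normalization (0.94) and with the sorted arrays fitted alone (limma adjusted p = 0.062). Adamts16, with 152, 16.3, 183, 118 and 108 in cortical arrays, was called higher (1.07, SE 0.35) with overlap, and the call was lost without cortical array 2 (0.68) or medullary array 2 (0.97). AW011738, with 158, 101, 13.4, 171 and 168 and 388, 523, 281, 314 and 309, was called higher (1.56, SE 0.34) without overlap. Mfap2, Gm38604 and Fbxw22 were not called, although without medullary array 5 Gm38604 was called, at 1.29.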
